A study of Mus musculus with 23 samples.

Results

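Oxidative phosphorylation in mouse B cells was followed through the nuclear genes that encode the subunits of the 4 respiratory chain complexes and of ATP synthase, the fifth complex. Members were chosen by gene symbol alone, as the Nduf, Sdh, Uqcr, Cyc1, Cox4 to Cox8 and Atp5 subunit genes without the Ndufaf assembly factors. The rule found 83 of the 11943 genes listed in either of the 2 deposited tables. Complex I had 38 members, complex II 4, complex III 9, complex IV 15 and ATP synthase 17. All 83 were listed in cultured cells and 80 in naive cells, where Cox4i2, Cox6a2 and Cox6b2, tissue-restricted forms of complex IV subunits, were not analysed. Ndufa4 is named for complex I but was counted with complex IV, where its protein is now placed. Each listed member passed the filter on low values and was tested.

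Complexes I and II feed electrons from NADH and succinate into ubiquinone, complex III passes them to cytochrome c, and complex IV passes them to oxygen. Complexes I, III and IV pump protons across the inner mitochondrial membrane, and ATP synthase uses their return to make ATP. Complex II also works in the citric acid cycle and pumps no protons. Resting B cells are small and metabolically quiet, and B cells enlarge their mitochondrial mass and respiration once activated. The mitochondrially encoded subunits of complexes I, III, IV and V were not analysed here.

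The libraries were made from polyA RNA of spleen B cells that carried or lacked a guide RNA against Irf8, a transcription factor of the B cell lineage. Naive cells were sorted by B220 without CD11b, F4/80 or Thy1.2. KO cells were the Thy1.1-positive ones that carried a guide, and WT cells were the Thy1.1-negative ones of the same arm, which carried none. There were 3 libraries each of naive KO with guide 1, naive WT of the guide 1 arm, naive KO with guide 2 and naive WT of the guide 2 arm. Other cells were stimulated for 72 h with 20 ng/ml of IL-2, 5 ng/ml of IL-5 and LPS, whose dose the labels give as 20 mg/ml. After culture, plasmablasts (CD138+, labelled as plasma cells) gave 3 KO and 2 WT libraries, and activated B cells (GL7+ and CD138-) gave 3 KO and 3 WT libraries. Cultured KO cells carried guide 1. Values are RPKM, read counts scaled to gene length and library size, as the authors deposited them. KO here means cells sorted for a guide: the edit was not sequenced in these tables. Cultured titles share m1, m2 or m3 across groups and naive ones A, B or C, but the labels do not tie these to animals. The main fit did not pair libraries by them, so p-values measure the spread between these libraries. A fit with them as a replicate block was an alternative.

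Irf8 RNA itself was 59.5, 77.7 and 72.4 RPKM in naive KO cells with guide 1, against 95.8, 98.0 and 93.3 in their WT arm. With guide 2 it was 50.9, 50.3 and 47.6 RPKM in KO cells, against 88.0, 88.4 and 79.8 in WT cells. In plasmablasts it was 17.5, 21.4 and 24.2 RPKM in KO cells, against 24.6 and 17.6 in WT cells, so these groups overlapped. Among activated cells, KO 1 and KO 2 had 69.2 and 68.1 RPKM, against 108 and 93.6 in WT 1 and WT 2, but the third libraries went against their labels. The library labelled activated KO 3 had 92.4 RPKM of Irf8 and 0.093 of Thy1, the sorting marker of guide-carrying cells, whereas the library labelled activated WT 3 had 60.0 of Irf8 and 25.7 of Thy1. Naive WT of the guide 1 arm, library A, held 4.93 RPKM of Thy1, against 0 to 0.052 in the other naive WT libraries.

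Depth, estimated from the steps between low values, was 14500000 to 22200000 reads in naive libraries. In cultured libraries where it could be read it was 4300000 to 26900000, except in plasmablast KO 3, with about 51000. That library gave an estimated 299 reads over all 83 members and listed 8 of them and 1984 of all 10574 genes at 0. Naive KO guide 1 A also stood apart, with 1405 of 11548 genes at 0 against 66 to 291 in the other naive libraries. Counts of called members are given with and without these libraries and the third activated libraries. The 6 B cell markers were listed in both tables, with sums of 629 to 1297 RPKM in KO and 1261 to 1607 in WT plasmablasts, 1651 to 2386 in activated cells and 2671 to 3417 in naive cells. Sdc1, which encodes the sorting marker CD138, was 27.5 to 34.1 RPKM in 4 plasmablast libraries and 3.03 in KO 3, against 0.226 to 0.79 in activated cells. The 6 plasmablast markers summed to 1621 to 2589 RPKM in KO and 2083 to 3721 in WT plasmablasts. In activated cells they summed to 997 to 1394 in KO and 708 to 1938 in WT, so the stages overlapped on this list. The 2 listed macrophage markers of 6 summed to 0 to 5.33 RPKM in plasmablasts and 3.94 to 7.81 in activated cells, and the 1 listed erythroid marker of 5 to 0 to 2.6 and 3.11 to 12.1. In naive cells, 4 listed macrophage markers summed to 5.15 to 10.6 RPKM, and 2 erythroid ones to 2.54 to 21.7, highest in KO guide 1. The 3 listed natural killer markers of 4 summed to at most 0.505 in naive KO cells. In the naive WT arms of guides 1 and 2 they summed to 0.176 to 12.4 and 0.036 to 9.60. Their part in the results was not tested, and T cell, neutrophil and platelet markers were not analysed here.

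Promoters were searched for the letters bound by known factors. RefSeq windows from 250 bases before to 50 bases after the start were searched on both strands for 66 of the 83 members (GRCm38.p6). The letters bound by NRF1, a transcription factor of respiratory genes, were searched as GCGCA, any base, then GCGC. They were present in 16 of 66 member windows (24.2%), against 11.9% of 8556 windows of genes in the cultured table and 4.78% of all 27025 windows. The stretches below carry them in capitals, for 3 members that were higher in plasmablasts and for Sdha, which was lower.
Ndufs5 (chr4:123718215-123718344, minus strand): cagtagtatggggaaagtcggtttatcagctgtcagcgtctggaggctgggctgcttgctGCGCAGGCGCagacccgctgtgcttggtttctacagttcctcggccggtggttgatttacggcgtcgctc
Cox6a1 (chr5:115349006-115349129, minus strand): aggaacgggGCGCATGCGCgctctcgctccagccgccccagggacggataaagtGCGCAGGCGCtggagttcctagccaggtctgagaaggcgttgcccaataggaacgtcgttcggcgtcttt
Atp5h (chr11:115419991-115420120, minus strand): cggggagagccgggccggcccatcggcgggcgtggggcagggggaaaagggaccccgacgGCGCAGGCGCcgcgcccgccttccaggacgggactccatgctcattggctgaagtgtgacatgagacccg
Sdha (chr13:74350281-74350308, minus strand): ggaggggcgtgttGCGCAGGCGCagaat

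By the same fit, the NRF1 letters stood in 8 of the 25 windows of members that were higher in plasmablasts. They stood in 2 of the 6 of members that were lower and in 6 of the 35 of members that passed in neither direction. The same split over all genes was not analysed here, so these counts have no background. The letters AAGATGG of YY1 were in 15.2% of member windows and 7.94% of windows of genes in the cultured table. CCGGAAGT of the ETS family was in 7.58% and 9.62%, the E-box CACGTG in 9.09% and 10.7%, and a spaced repeat that IRF proteins bind (GAAA, any 2 bases, GAAA) in 3.03% and 3.19%. The 2 members with the IRF-type repeat were Ndufa9 and Ndufs3. A neighbouring gene on the other strand started within 1000 bases before to 100 bases after the start of 21 of 80 members (26.3%), against 12.3% of 10116 protein-coding genes of the cultured table. These are matches of letters and positions, and none was tested for binding.

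From naive to activated to plasmablast WT cells, the summed subunit levels stood higher in culture in every complex. The naive and cultured tables were normalised separately, so stage and table cannot be told apart and the levels are set side by side with no test. In activated WT libraries 1 and 2, 78 of 80 members (97.5%) lay above all 6 naive WT libraries and 0 below them. Of 9622 shared genes, 33.4% lay above and 31.0% below. Those genes had a mean of at least 1 RPKM in naive WT or in activated WT libraries 1 and 2. The median member was 0.99 higher on the log2(RPKM + 1) scale in activated and 1.11 higher in plasmablast WT cells than in naive WT cells, against -0.0073 and -0.18 for all genes. The 2 members that overlapped the naive range were Sdha, the succinate-oxidising flavoprotein of complex II, and Ndufs1, the large iron-sulfur subunit of complex I.

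**Figure D1:**
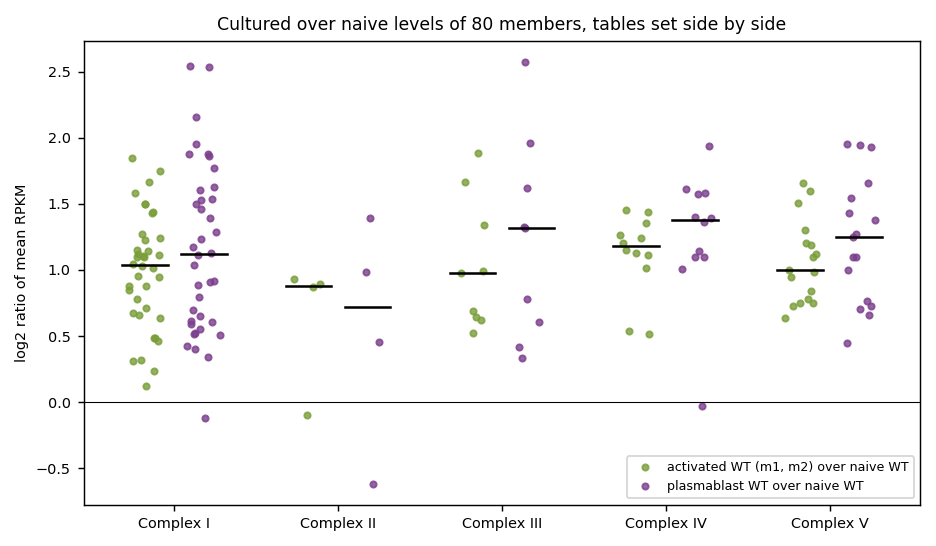
Ratio of each member's mean RPKM in activated WT (libraries 1 and 2) and plasmablast WT cells to its mean in the 6 naive WT libraries, grouped by complex and plotted as log2, with 0 for equal levels and bars at the medians. Most points lie above 0, Uqcrq is highest with ratios of 3.70 and 5.95, and Sdha is lowest with 0.935 and 0.653.

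Among single members, the ratio of activated over naive WT means ran from 0.935 for Sdha to 3.70 for Uqcrq, a small subunit of complex III, with a median of 2.03 and 43 members above 2. In plasmablasts over naive cells it ran from 0.653 for Sdha to 5.95 for Uqcrq, with 50 members above 2 and 3 below 1. Ndufa1, a small membrane-arm subunit of complex I on the X chromosome, averaged 99.8 RPKM in naive, 282 in activated and 579 in plasmablast WT cells. On the log2(RPKM + 1) scale, median differences of activated over naive cells by complex were 1.00 for I, 0.86 for II, 0.97 for III, 1.17 for IV and 0.99 for V. For plasmablasts over naive cells they were 1.09, 0.71, 1.29, 1.36 and 1.21 in the same order. Complex II had the lowest of the 5 medians at both stages, on 4 members.

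**Figure D2:**
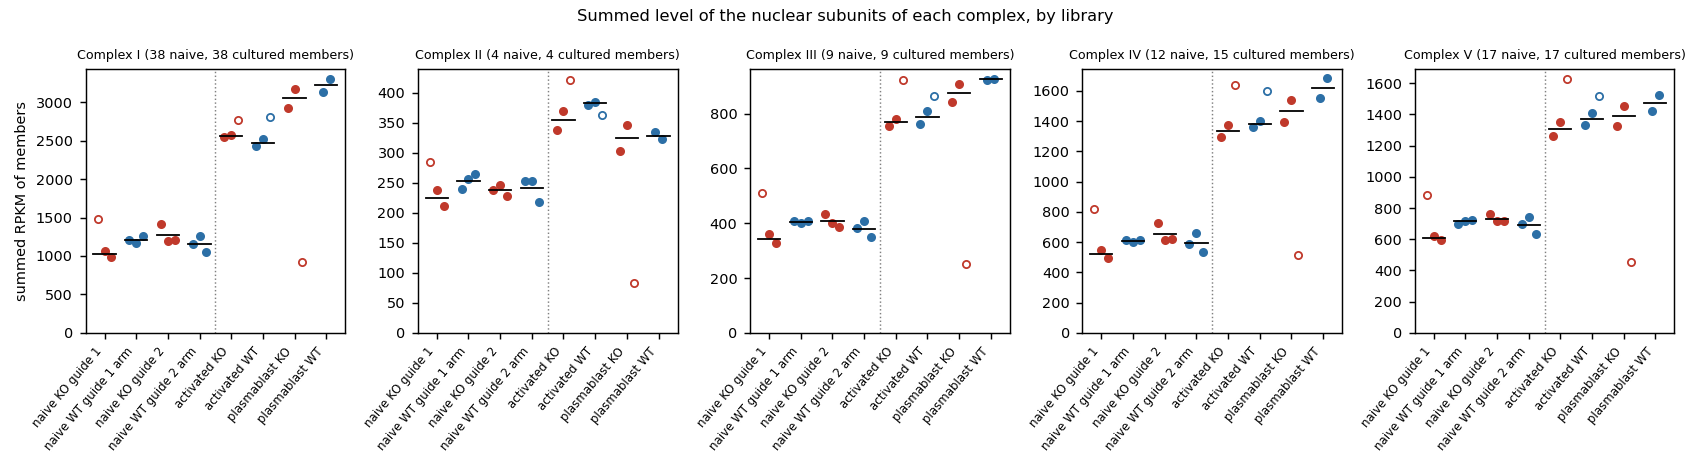
Summed RPKM of the members of each complex in every library, with KO in red, WT in blue and open circles for the libraries that stand apart, and bars at the mean of the others. In complex I the 4 plasmablast libraries other than KO 3 sit between 2919 and 3307, above the 4 activated libraries other than the third ones, at 2424 to 2577, and the naive libraries lie between 991 and 1479.

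Within a stage, members spanned a wide range of levels per length of gene. In naive WT cells the lowest was Ndufb2 at 5.97 RPKM, the median member had 31.5, and the highest was Atp5b, the catalytic beta subunit of ATP synthase, at 124. In activated libraries 1 and 2 the range was 1.05 for Cox6b2, the testis form of subunit 6b, to 305 for Ndufa1, with a median of 58.5. In plasmablasts without KO 3 it was 0.861 for Cox6b2 to 553 for Ndufa1, with a median of 66.3. The length the authors divided by was longer than the merged exons of the GENCODE annotation for 63 of 80 members, by a median ratio of 1.42. Recomputed on merged exons, 8 of the top 10 members were shared in naive WT and activated cells and 7 of 10 in plasmablasts.

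**Figure D3:**
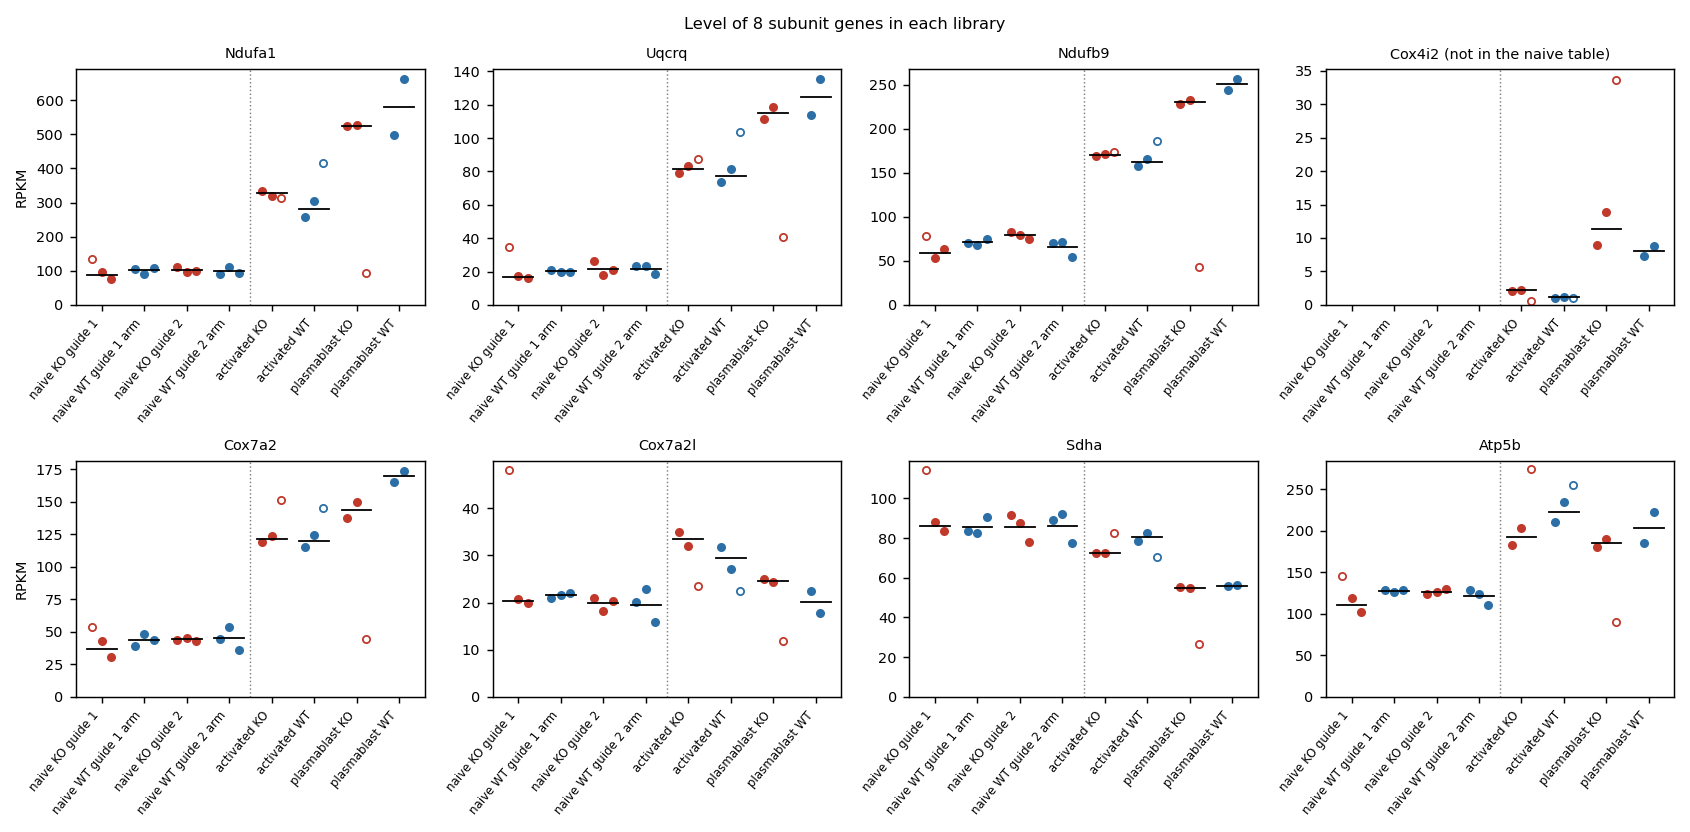
RPKM of 8 members in every library, on a linear axis from 0, with KO in red, WT in blue, open circles for the libraries that stand apart and bars at the mean of the others. Plasmablast KO 3 lies below the other plasmablasts for each member shown except Cox4i2, where it is highest at 33.5, and Sdha is lower in plasmablasts than in activated cells.

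Plasmablasts were set against activated B cells of the same culture. With all 11 cultured libraries, 2 of 83 members rose and 0 fell across both genotypes, while 11% of all genes passed (2.92% higher and 8.11% lower; limma on log2(RPKM + 1), Benjamini-Hochberg adjusted p under 0.05). These were Cox4i2 and Ndufs5. Without plasmablast KO 3 and the third activated libraries, 32 members rose and 9 fell. That is 38.6% and 10.8% of members, against 19.1% and 36.7% of all 9861 genes, 55.8% in either direction. The median member stood at 0.13 and the median gene at -0.13 on the log2 scale. In those 8 libraries, 37 members (44.6%) lay wholly above the activated range and 6 (7.23%) wholly below, against 15.9% and 31.5% of all genes. With all 11 libraries 2 members lay wholly above and 5 wholly below, against 4.15% and 14.7% of all genes. Leaving out plasmablast KO 3 alone gave 21 higher and 9 lower, against 18.3% and 31.5% of 9883 genes, 49.8% in either direction. The median member there stood at 0.06 and the median gene at -0.11. The third activated libraries were doubted for guide labels, not stage, and leaving them out too moved the higher members from 21 to 32. Differences of single members without plasmablast KO 3 alone are not reported here. Differences below are from the 8 libraries unless stated, and 17 of the 32 higher members had a negative difference when all 11 libraries were fitted. Counts by complex or role stand against 19.1% higher and 36.7% lower of all genes in the 8, and 2.92% and 8.11% in all 11. In each list of 3 activated values the last is the library labelled KO 3 or WT 3, which went against its label.

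By genotype, the 8 libraries gave 28 higher and 8 lower members in WT plasmablasts (15.5% and 30.7% of all genes, 46.3% in either direction). In KO plasmablasts 15 were higher and 2 lower (12.1% and 21.5%, 33.6% in either direction). The 2 comparisons shared 16 members, 44.4% of those called in WT and 94.1% of those called in KO. The genotype difference in the plasmablast change passed for 0 members with all libraries and 0 with the 8, where 0% and 0.0304% of all genes passed, and at an unadjusted p under 0.05 for 0 and 2 members (0.1% and 7.63% of all genes). With all 11 libraries, 0 members passed in WT (1.76% of all genes, and 3 members at an unadjusted p under 0.05, where 13.7% of all genes did) and Cox4i2 alone in KO (3.44%).

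In complex I, 14 of 38 members rose and 4 fell in the 8 libraries, with a median difference of 0.13, and 1 rose and 0 fell with all 11, with a median of -0.11. Ndufa1 (chrX:37187588-37191163, minus strand) had 524 and 528 RPKM in plasmablast KO 1 and 2 and 93.1 in KO 3, and 497 and 661 in WT plasmablasts. In activated cells it had 335, 320.2 and 314 in the libraries labelled KO and 258, 306 and 416 in those labelled WT. All plasmablast libraries but KO 3 lay above all activated ones, and the log2 difference was 0.85 ± 0.11 (SE; adjusted p = 2.49e-05), a 1.81-fold rise on the RPKM + 1 scale. With all 11 libraries it was 0.36 (adjusted p = 0.643).

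Ndufb9, another membrane-arm subunit, had 228, 233 and 42.9 RPKM in KO and 244 and 257 in WT plasmablasts, against 169, 171 and 174 in KO and 158, 166 and 186 in WT activated cells. Its difference was 0.53 ± 0.08 (adjusted p = 6.21e-05), and 0.09 with all 11 (adjusted p = 0.905). Ndufs5, an intermembrane-space-facing subunit, had 39.1, 42.8 and 47.5 RPKM in KO and 40.8 and 43.1 in WT plasmablasts, against 33.2, 31.0 and 32.5 in KO and 29.7, 31.5 and 32.8 in WT activated cells. The groups did not overlap in the 8 libraries or in all 11. Plasmablast KO 3, however, gave an estimated 299 reads over all members, so its 47.5 RPKM of Ndufs5 rests on very few reads. These are too few to place that library above the activated cells. The difference was 0.41 with all 11 libraries (an adjusted p that rounds to 0.05 and lies just under the threshold). With 8 it was 0.39 ± 0.07 (adjusted p = 0.000489). With all 11 libraries the call was lost when any 1 library other than plasmablast KO 3 was left out. Ndufs5-ps, annotated as a pseudogene of Ndufs5, rose by 0.51 ± 0.07 (adjusted p = 5.58e-05), and stood at 0.15 with all 11 (adjusted p = 0.762). Reads of that near-identical pair may have been split by the authors' counting, so both values are uncertain. The same holds for Ndufb4 and its copy Ndufb4c, which passed in neither direction.

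The core subunits of complex I, some of which carry the flavin and the iron-sulfur clusters, were split. Ndufv1, which takes electrons from NADH, rose by 0.25 ± 0.08 (adjusted p = 0.0172) and Ndufs3 by 0.20 ± 0.07 (adjusted p = 0.0292). Ndufv2, an iron-sulfur subunit, was lower, at -0.22 ± 0.07 (adjusted p = 0.0201). Ndufs1 at -0.19, Ndufs7 at 0.13 and Ndufs8 at 0.19 did not pass (adjusted p = 0.0783, 0.144 and 0.0508). Against 19.1% higher and 36.7% lower of all genes, the membrane-arm accessory subunits counted 9 higher and 2 lower of 19. Those of the matrix arm counted 2 higher and 0 lower of 9. The 2 lower ones were Ndufa10 at -0.32 ± 0.09 and Ndufc2 at -0.31 ± 0.09 (adjusted p = 0.00684 and 0.00833). Over all 11 libraries 0 core subunits passed: Ndufv1 stood at -0.30, Ndufs3 at 0.20 and Ndufv2 at -0.67 (adjusted p = 0.729, 0.272 and 0.377), and Ndufa10 and Ndufc2 at -0.54 and -0.46 (adjusted p = 0.246 and 0.174).

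Complex II was the one of the 5 whose median was below 0 in the 8 libraries, at -0.14 on its 4 members. With all 11, the medians of all 5 complexes were below 0, from -0.11 in complex I to -0.54 in complex II. Sdha (chr13:74322254-74350280, minus strand) had 55.1, 55.0 and 26.4 RPKM in KO and 55.7 and 56.5 in WT plasmablasts, against 72.3, 72.6 and 82.4 in KO and 78.3, 82.4 and 70.6 in WT activated cells. Every plasmablast library lay below every activated one. The difference was -0.45 ± 0.07 in the 8 libraries (adjusted p = 9.15e-05) and -0.62 with all 11 (adjusted p = 0.0844).

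The membrane anchors of complex II went opposite ways. Sdhc had 32.7, 37.7 and 25.4 RPKM in KO and 36.9 and 38.8 in WT plasmablasts, against 28.5, 28.7 and 27.9 in KO and 25.8, 26.9 and 29.7 in WT activated cells, a rise of 0.40 ± 0.07 (adjusted p = 0.000551). Sdhd had 119, 144 and 15.8 RPKM in KO and 133 and 122 in WT plasmablasts, against 138, 169 and 199 in KO and 172, 173 and 152 in WT activated cells, a difference of -0.33 ± 0.09 (adjusted p = 0.00855). Plasmablast KO 2 overlapped activated KO 1 for Sdhd. The iron-sulfur subunit Sdhb stood at 0.05 ± 0.07 and did not pass (adjusted p = 0.606). Among all 11 libraries 0 members of complex II passed, with Sdhc at 0.30 and Sdhd at -0.86 (adjusted p = 0.188 and 0.318).

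In complex III, 4 of 9 members rose and 1 fell. Uqcrq had 111, 118 and 40.5 RPKM in KO and 114 and 135 in WT plasmablasts, against 79.3, 83.3 and 87.3 in KO and 73.5, 81.3 and 104 in WT activated cells, a rise of 0.59 ± 0.08 (adjusted p = 4.53e-05). Uqcr11, another small accessory subunit, rose by 0.54 ± 0.09 (adjusted p = 0.000164) and the hinge protein Uqcrh by 0.21 ± 0.07 (adjusted p = 0.0199). The Rieske iron-sulfur protein Uqcrfs1 rose by 0.28 ± 0.08 (adjusted p = 0.00937), whereas Cyc1, cytochrome c1, stood at 0.02 ± 0.08 (adjusted p = 0.855). The core protein Uqcrc2 was at -0.22 ± 0.07 (adjusted p = 0.0164) and its partner Uqcrc1 at -0.03 ± 0.08 (adjusted p = 0.733). No member of complex III passed with all 11 libraries: Uqcrq stood at 0.25, Uqcrfs1 at 0.11 and Uqcrc2 at -0.55 (adjusted p = 0.601, 0.733 and 0.344).

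In complex IV, 5 of 15 members rose and 1 fell in the 8 libraries, 1 rose with all 11, and Cox4i2 had the greatest difference of all 83 members. Cox4i2 (chr2:152754173-152765037, plus strand), the alternative form of regulatory subunit 4 known from lung, had 8.94, 13.9 and 33.5 RPKM in KO and 7.38 and 8.75 in WT plasmablasts. In activated cells it had 2.09, 2.24 and 0.613 in the libraries labelled KO and 1.01, 1.23 and 1.10 in those labelled WT. Every plasmablast library lay above every activated one, and the difference was 2.02 ± 0.13 in the 8 libraries (adjusted p = 7.78e-08) and 2.43 with all 11 (adjusted p = 0.00208). The value of 33.5 in plasmablast KO 3 rests on an estimated 2 reads, at the lowest depth of the series. Cox4i2 still made up a small share of summed subunit 4 RPKM, 5.11% ± 1.38 in plasmablasts and 1.00% ± 0.35 in activated cells (SD, n = 4 each), and 31.4% in plasmablast KO 3. The common form Cox4i1 stood at 0.16 ± 0.07 and did not pass (adjusted p = 0.0766).

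Cox7a2l, which links complexes III and IV into supercomplexes, was lower while its relative Cox7a2, a subunit of complex IV itself, was higher. Cox7a2l had 25.0, 24.3 and 11.8 RPKM in KO and 22.4 and 17.9 in WT plasmablasts, against 34.9, 32.0 and 23.4 in KO and 31.7, 27.1 and 22.4 in WT activated cells. The libraries labelled activated KO 3 and WT 3 were in the plasmablast range, and without them and plasmablast KO 3 the groups did not overlap (-0.48 ± 0.09, adjusted p = 0.00052). Cox7a2 had 137, 149.6 and 44.8 RPKM in KO and 165 and 174 in WT plasmablasts, against 119, 123 and 151 in KO and 115, 124 and 145 in WT activated cells (0.37 ± 0.07, adjusted p = 0.00102). Cox7a2l stood at -0.50 and Cox7a2 at -0.0063 with all 11 libraries, and neither passed (adjusted p = 0.19 and 0.991). As a share of the pair's summed RPKM, Cox7a2l was 31.7% ± 1.9 in naive WT cells (n = 6), 20.7% ± 2.0 in activated cells and 12.7% ± 2.6 in plasmablasts (SD, n = 4 each). The authors' length was 2.24 times the merged exons for Cox7a2l and 1.38 times for Cox7a2, so the size of the share depends on those lengths. With all libraries the share was 18.2% ± 4.1 in activated cells (n = 6) and 14.3% ± 4.3 in plasmablasts (n = 5), and the ranges overlapped. The naive share comes from another table.

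Other members of complex IV that rose were Cox7c, Cox6a1 and Ndufa4, by 0.40, 0.35 and 0.25, against -0.14, -0.15 and -0.03 with all 11 libraries. Cox5a and Cox5b, subunits with no second form, stood at -0.03 and 0.07 and did not pass (adjusted p = 0.719 and 0.398). Cox6a2, the heart and muscle form of subunit 6a, had 4.99, 6.36 and 0 RPKM in KO and 5.08 and 5.78 in WT plasmablasts, against 3.19, 9.06 and 4.19 in KO and 20.1, 7.99 and 8.30 in WT activated cells. Across both genotypes it did not pass (-0.53 ± 0.27, adjusted p = 0.106), and in WT it was lower, at -1.10 ± 0.38 (adjusted p = 0.0297, and 0.755 with all 11 libraries), with activated WT 1 far above the others. The liver form Cox6a1 made up 98.1% ± 0.24 of summed subunit 6a RPKM in plasmablasts and 95.9% ± 2.8 in activated cells (SD, n = 4 each). Cox6b2 ranged from 0 to 1.43 RPKM over the cultured libraries.

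In ATP synthase, 8 of 17 members rose and 1 fell in the 8 libraries, with a median of 0.17, and 0 passed with all 11, with a median of -0.23. The catalytic head did not rise: Atp5a1, the alpha subunit, had 157, 166 and 59.2 RPKM in KO and 156 and 169 in WT plasmablasts, against 172, 189 and 234 in KO and 201, 208 and 207 in WT activated cells (-0.25 ± 0.08, adjusted p = 0.0167). The beta subunit Atp5b stood at -0.09 ± 0.09 (adjusted p = 0.393). The c ring counted 2 higher of 3, the peripheral stalk 2 of 4 and the membrane accessory subunits 3 of 5, with 0 lower in each. Over all genes 19.1% were higher and 36.7% lower, and these groups are small. Atp5j2, subunit f, rose by 0.32 ± 0.08 (adjusted p = 0.0038) and Atp5h, subunit d of the peripheral stalk, by 0.30 ± 0.07 (adjusted p = 0.0031). Atp5a1 stood at -0.55, Atp5j2 at -0.32 and Atp5h at 0.0087 with all 11 libraries (adjusted p = 0.239, 0.735 and 0.985).

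The c ring is encoded by 3 genes for the same mature protein. Atp5g1 and Atp5g3 rose by 0.31 ± 0.09 and 0.30 ± 0.07 (adjusted p = 0.00971 and 0.00336), and Atp5g2 stood at -0.06 ± 0.09 (adjusted p = 0.565). Atp5g3 gave 69.4% ± 1.7 of summed c ring RPKM in plasmablasts and 66.2% ± 1.9 in activated cells, and Atp5g2 gave 17.7% ± 1.5 and 21.8% ± 1.3 (SD, n = 4 each). The authors' lengths were 1.99, 1.26 and 1.34 times the merged exons for Atp5g1, Atp5g2 and Atp5g3. The shares therefore depend on those lengths and are not proportions of RNA molecules. In naive WT cells Atp5g3 gave 69.2% ± 2.4 and Atp5g2 21.9% ± 1.4 (n = 6). Plasmablast KO 3 had 24.2% from Atp5g3 and 50.4% from Atp5g2. These shares rest on an estimated 2 reads of Atp5g3, 3 of Atp5g2 and 7 of Atp5g1, too few to compare with the other libraries.

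Scaling moved the calls. When the 8 libraries were scaled to the same median, 52 members were higher and 2 lower, against 31.8% and 22.5% of all genes, and the median gene stood at 0.06 where it had been at -0.13 unscaled. The median member then stood at 0.32. Of the 9 lower members, Cox7a2l at -0.28 and Sdha at -0.26 stayed called (adjusted p = 0.00636 and 0.0167). Those that lost the call included Sdhd at -0.13 ± 0.11, Ndufa10 at -0.12 ± 0.09, Ndufc2 at -0.12 ± 0.09 and Atp5a1 at -0.05 ± 0.11 (adjusted p = 0.323, 0.241, 0.31 and 0.705). Uqcrc2 and Ndufv2 stood at -0.02 and -0.03 (adjusted p = 0.805 and 0.775). Each of these differences stayed below 0 and below the median gene.

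Differences were higher for members with short transcripts in the 8 libraries. Members with a coding transcript under 1000 bases (46) had a median difference of 0.23, those of 1000 to under 2000 bases (24) of -0.003 and those of 2000 bases or more (9) of -0.10. Over all tested genes the medians in the same bins were 0.02, -0.11 and -0.16. Across 79 members with a length, Spearman's rho between length and difference was -0.37, against -0.08 across 9449 genes, as a description over features of the same libraries. Over all 11 libraries the member medians in those bins were -0.15, -0.26 and -0.22, and rho was -0.11 across members and 0.09 across genes. The part of transcript length in the result was not tested.

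Other mitochondrial gene lists counted more lower than higher genes in the 8 libraries. Of 17 genes of the citric acid cycle and pyruvate dehydrogenase, 1 rose and 11 fell, with a median of -0.27: Fh1, fumarase, was at -0.89, Idh3a at -0.73 and Suclg2 at -0.72. Of 10 mobile carriers and transporters, 0 rose and 6 fell (median -0.34), among them the ADP/ATP carrier Slc25a4 at -1.11 and the channel Vdac1 at -0.58. Of 46 assembly factors of the complexes, 5 rose and 16 fell (median -0.19). Of 77 mitochondrial ribosome genes, 14 rose and 30 fell (median -0.12), and of 9 genes of cristae organisation 1 rose and 3 fell. Among 13 regulators of mitochondrial biogenesis, Tfb1m, a ribosomal RNA methyltransferase of mitochondria, rose by 0.55 and Myc was at -0.81, with 5 lower in all. Against these stand 19.1% higher and 36.7% lower over all genes. Over all 11 libraries the lists had 0 higher and 5 lower in the citric acid cycle, 0 and 3 among carriers, 0 and 1 among assembly factors, 0 and 5 in the ribosome, 0 and 0 in cristae organisation and 1 and 0 among regulators, against 2.92% and 8.11% of all genes. Fh1, Idh3a, Suclg2, Slc25a4 and Tfb1m also passed there.

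In naive cells, KO was set against WT to ask whether subunit levels differ in cells that carry an Irf8 guide. No member passed with either guide: 0 of 80 over both guides, 0 with guide 1, 0 with guide 2 and 0 for the difference between guides, where 1.88%, 1.11%, 0.0296% and 0% of all genes passed. At an unadjusted p under 0.05 there were 1, 5, 1 and 4 members of 80 (1.25%, 6.25%, 1.25% and 5%), against 12.7%, 15.7%, 4.2% and 4.73% of all genes. The median member differed by 0.05 over both guides, -0.03 with guide 1 and 0.12 with guide 2. Summed over all members, naive KO cells had 3226 ± 493 RPKM and naive WT cells 3129 ± 189 (SD, n = 6 each), and 3076 ± 366 without KO guide 1 A.

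**Figure D4:**
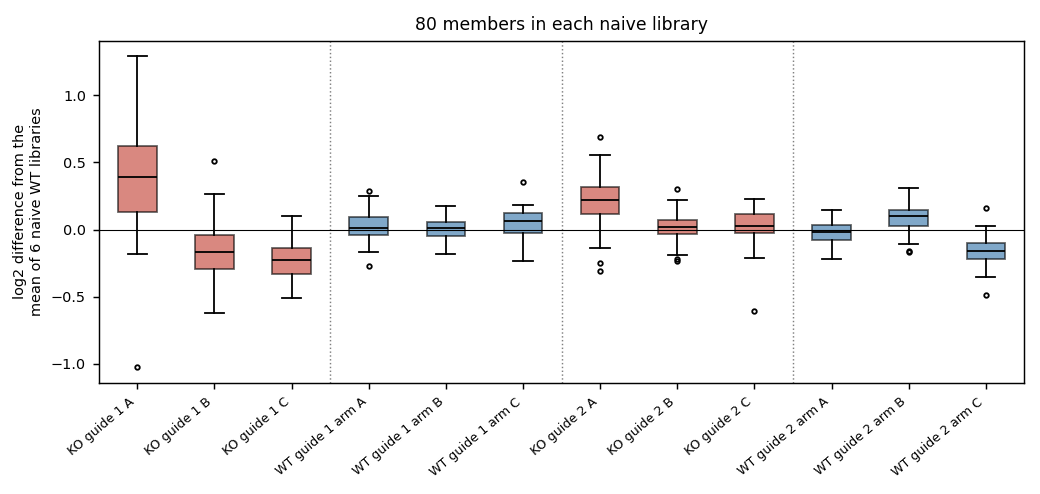
Log2 difference of each of the 80 members from its mean over the 6 naive WT libraries, one box per naive library with KO groups left of their WT arms. Boxes of KO guide 1 A and KO guide 2 A sit above 0 with medians of 0.39 and 0.22, and those of KO guide 1 B and C and WT guide 2 arm C sit below at -0.17, -0.23 and -0.16.

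The naive KO libraries with guide 1 did not move together. Against the mean of the naive WT libraries, 69 of 80 members were higher in A, 14 in B and 3 in C, with medians of 0.39, -0.17 and -0.23. With guide 2, 70 were higher in A, 50 in B and 51 in C. WT libraries also varied, from 2 members higher in guide 2 arm C to 65 in guide 2 arm B. Of the 80 members, 6 lay wholly below WT with guide 1 (7.5%, against 9.78% of all genes) and 8 wholly above with guide 2 (10%, against 7.06%). Without KO guide 1 A, 51 members (63.75%) lay wholly below WT with guide 1, against 19.0% of all genes. In that fit the median was -0.22 and 18 of 80 members (22.5%) had an unadjusted p under 0.05, against a median gene at -0.02 and 19.1% of all genes. After adjustment 0 members passed, against 2.4% of all genes. In the same fit guide 2 and both guides together also had 0 members, against 0.348% and 3.84% of all genes.

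Uqcrfs1 came nearest to the threshold with guide 1. It had 70.4, 59.4 and 57.8 RPKM in KO cells, against 78.9, 83.2 and 79.0 in WT cells, with no overlap (-0.36 ± 0.12, adjusted p = 0.175, and -0.45 ± 0.12 with adjusted p = 0.0577 without A). With guide 2 it had 63.3, 81.7 and 69.5 RPKM in KO cells, against 73.9, 71.3 and 66.3 in WT cells, and the groups overlapped. Ndufs4, a matrix-arm subunit, had 11.4, 8.64 and 10.2 RPKM with guide 1, against 11.8, 12.9 and 16.9 in WT cells (-0.42 ± 0.16, adjusted p = 0.233), and 13.3, 13.3 and 12.3 with guide 2, against 12.9, 12.1 and 11.4. Ndufab1, the mitochondrial acyl carrier protein, had the largest positive difference with guide 1, 0.60 ± 0.24 (adjusted p = 0.259), on 20.6, 11.6 and 8.49 RPKM in KO cells, against 8.83, 8.19 and 7.32 in WT cells. Its high value was in library A.

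The difference between guides, guide 2 minus guide 1, also turned on that library. With all libraries the median over members was 0.14 and 4 had an unadjusted p under 0.05. Over all genes the median was 0.05 and 4.73% did. Without KO guide 1 A the median over members was 0.34 and 26 of 80 did (32.5%), against 0.03 and 10.2% over all genes. After adjustment 0 members and 0 genes passed in either fit. In bulk libraries, fewer cells of one kind and less RNA per cell cannot be told apart. Marker lists moved with the groups too. The 3 listed naive B cell markers of 4 summed to 392.2 to 696 RPKM in KO cells with guide 1, against 717 to 949 in their WT arm, and to 392.4 to 572 with guide 2, against 698 to 736, with no overlap in either arm. The 5 listed plasmablast markers of 6 summed to 66.7 to 93.6 RPKM in KO cells with guide 1, against 53.5 to 75.3, and to 59.8 to 74.3 with guide 2, against 66.3 to 140, and overlapped in both arms. Among them Sdc1 was 0 to 1.19 RPKM in KO cells, against 1.97 to 3.87 in WT cells. The part of these markers in the member values was not tested.

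After culture, KO was set against WT within each stage. In activated cells 0 of 83 members passed with all libraries and 0 with the 8, where 0% and 0.71% of all genes passed, with 0 and 2 members at an unadjusted p under 0.05, against 0.02% and 12% of all genes. Those 2 were Cox4i2 at 0.58 ± 0.19 and Cox6a2 at -1.09 ± 0.38 (adjusted p = 0.208 and 0.241). With all libraries Cox4i2 stood at 0.26 ± 0.43. In the 8 libraries 23 members lay wholly above and 22 wholly below WT (27.7% and 26.5%), against 24.8% and 24.2% of all genes, and the median difference was -0.0074. With all libraries 5 members lay wholly above and 0 below (6.02% and 0%), against 1.97% and 1.27% of all genes.

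In plasmablasts 0 members passed with all libraries and 0 with the 8, where 0% and 0.071% of all genes passed, with 0 and 4 members at an unadjusted p under 0.05, against 0.851% and 5.96% of all genes. The median member was at -0.57 with plasmablast KO 3 and at -0.07 without it. Without it, 5 members lay wholly above WT and 15 wholly below (6.02% and 18.1%), against 19.5% and 8.38% of all genes. Cox7a2l and Cox4i2 were among the 5 above, at 0.29 ± 0.13 and 0.43 ± 0.19, and Cox7a2 among those below, at -0.24 ± 0.11 (adjusted p = 0.818 for each). With plasmablast KO 3 they stood at -0.05, 0.93 and -0.79 (adjusted p = 0.931, 0.609 and 0.609), and 1 member lay wholly above and 15 wholly below, against 8.57% and 5.14% of all genes.

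Summed over complexes, plasmablasts without KO 3 had 7336 ± 407 RPKM and activated libraries 1 and 2 of both genotypes 6358 ± 160 (SD, n = 4 each). Complex I had 3134 ± 161 and 2517 ± 66, complex III 900 ± 39 and 777 ± 24, complex IV 1543 ± 119 and 1358 ± 46, and ATP synthase 1432 ± 81 and 1338 ± 61. Complex II had 327 ± 18.5 and 369 ± 21, the reverse order. The left-out libraries changed this picture. The libraries labelled activated KO 3 and WT 3 summed to 7375 and 7149 RPKM, inside the plasmablast range of 6785 to 7764, and plasmablast KO 3 summed to 2222. In ATP synthase the third activated libraries had 1630 and 1516 RPKM, against 1329 to 1523 in the 4 plasmablast libraries. With all libraries plasmablasts had 6313 ± 2314 RPKM (n = 5) and activated cells 6660 ± 488 (n = 6) over all members, and 1236 ± 444 and 1416 ± 135 in ATP synthase. Ndufa1 alone is a large part of complex I on this scale, and sums weight members by their level per length.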

How the data were processed

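Bulk polyA RNA was sequenced from 23 libraries in 8 groups with SMART-seq v4 and Nextera XT, per the labels' protocols. The authors deposited RPKM values per gene in a naive and a cultured table. The gene length column served to check lengths, to estimate depth and reads, and to recompute levels on merged exons. STAR and mm10 are named in the submitters' processing notes; versions, annotation and counting are not given in the sources used here. Missing or date-like symbols were restored for 16 genes in each table, and 0 columns of values were left unmapped. RPKM are not counts, so no count test was run.

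For each table, log2(RPKM + 1) of genes at 1 RPKM or more in at least 2 libraries (10137 naive, 9986 cultured) was fitted with 1 mean per group in limma 3.58.1 (R 4.3.3, trend, two-sided moderated test), with Benjamini-Hochberg adjustment over all genes and a threshold of 0.05. The method was also run on simulated data, where every library had the spread seen without the libraries that stand apart. That run cannot speak to fits that hold those libraries. Sums, shares and ranges were made in Python 3.11.15 with pandas 2.3.3 and numpy 2.4.6. Naive and cultured tables were never tested against each other. Members and gene lists were chosen with earlier results of these data known. Named genes were core subunits, forms of 1 subunit, called members with the largest differences, the extremes of each complex and members in 1 table; the naive KO members, the list genes and those shown for promoters were named after their values were seen. Alternatives were a pseudocount of 0.1, no filter, scaling to the same median, array weights, the replicate block and leaving out libraries. The low-depth library limits precision, and WT plasmablast 3 was not analysed here. Some genes that enter the counts are not reported here by name.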

Additional observations from a re-analysis of the deposited data

How the results depend on the processing

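Over all alternatives run, 0 members passed in any KO against WT comparison, in the difference between guides or in the genotype difference. Counts of called members in plasmablasts against activated cells rested on several libraries, plasmablast KO 3 first among them; the share of all genes called in the same fit follows each count. Over both genotypes the count was 2 with all 11 libraries (11%), 39 with array weights (59.3%), 41 without plasmablast KO 3 and the third activated libraries (55.8%), 1 without the third activated libraries alone (5.55%), and 1 to 30 when each library was left out in turn, with 30 without plasmablast KO 3 (49.8%) and 1 without any other (3.64% to 11.1%). In WT it was 0 (1.76%), then 32 with array weights (46.3%) and 36 without the 3 libraries (46.3%), and 0 to 17 over single libraries left out, with 17 without plasmablast KO 3 (33.4%). In KO it was 1 (3.44%), then 17 with array weights (43.8%) and 17 without the 3 libraries (33.6%), 0 without the third activated libraries (0.592%), and 0 to 6 over single libraries, with 6 without plasmablast KO 3 (30.7%) and 0 without each activated KO library (0.221% to 0.571%). Within the 8 libraries, leaving out each further one gives a group of 1, assumed to vary like the others: counts were 16 to 37 in WT (16 without activated WT 1, 29.5%), 5 to 19 in KO (5, 7 and 6 without activated KO 1, activated KO 2 and plasmablast KO 2, against 23.7%, 20.8% and 23.8%) and 36 to 42 over both genotypes (45.9% to 58.2%). Scaling to the same median gave 28 in KO (35.2%). Of the 41 members, 29 passed in all 13 alternatives of that fit, and Ndufs3 in 7.

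With all 11 libraries the difference turned negative for 17 members that were higher in the 8: Ndufb11 -0.13, Atp5k -0.92, Cox6a1 -0.15, Cox7a2 -0.0063, Cox7c -0.14, Ndufa2 -0.015, Ndufa4 -0.025, Ndufv1 -0.30, Atp5g3 -0.31, Ndufb6 -0.0077, Atp5j2 -0.32, Uqcrh -0.15, Uqcr11 -0.073, Atp5e -0.31, Ndufa13 -0.022, Ndufa11 -0.027 and Atp5mpl -0.17. For deviations of same-numbered libraries from their group means, r was -0.11 to 0.18 in naive and -0.24 to 0.25 in cultured cells. In these, 1 of 6 and 1 of 15 pairs were above 0.1. With groups of 2 or 3 libraries, and the third cultured libraries included, these values cannot decide whether same-numbered libraries are paired. With the replicate block, Ndufs5 in plasmablasts against activated cells stood at 0.43 (adjusted p = 0.0721) with all libraries, and the counts were 2 over both genotypes (9.41%), 0 in WT (1.2%) and 1 in KO (1.92%). In the 8 libraries the block gave 44 (59.1%), 39 (50.6%) and 23 (37.8%). The adjusted p of Ndufs5 ranged from 0.000112 to 0.193 over the alternatives of that fit. The 51000 reads of plasmablast KO 3 cannot show differences in most members.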
